A study of Rattus norvegicus with 10 samples.

Results

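Susd3 and the genes of 5 steroid hormone receptors, Esr1, Esr2, Pgr, Nr3c1 and Nr3c2, were described in rat milk whey on 3 days of lactation and in serum. The members were all non-control array probes that the files name after one of these 6 genes, which gave 10 probes of 41012. Susd3 was selected on its normalized signal, which was higher on the later days in these same arrays, so its values are a description without a test, and the question put to the receptors was whether their transcripts moved between days as well.

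Whey is the fluid that remains when fat, cells and casein have been removed from milk, and its RNA is therefore outside cells. Milk was taken from the same 3 dams of the inbred strain F344/N on d 2, d 9 and d 16 postpartum, after an oxytocin injection and under sevoflurane, and each whey sample had a 1-colour array with 60-base probes. Serum of these dams was taken on d 21, and the RNA of all 3 dams was pooled on 1 array, so that serum had no replicate. Every array received labelled RNA made from 100 ng of total RNA, so a level is relative to the total RNA of that sample.

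Steroid receptors are transcription factors that a hormone switches on. Until the hormone binds, the receptors of this class are held by heat shock protein chaperones, and afterwards they bind DNA and recruit coregulators. In the mammary gland, oestrogen acting through Esr1 drives growth of the ducts, progesterone acting through Pgr drives side branching and alveoli, and glucocorticoids acting through Nr3c1 sustain milk protein genes together with prolactin. Susd3 encodes a small membrane protein with a sushi domain, and in breast cancer cells it is known for its link with oestrogen receptor.

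The probes are shown because they define what was measured, and because the reach of a statement on a receptor depends on which probes lit up. Sequences are those of the array files, 5′ to 3′, in lower case, and capitals mark the run of 14 bases that Nr3c1 probes 1 and 2 share. The Esr1, Esr2, Pgr and second Nr3c2 probes are given whole, and the last 30 bases of Nr3c1 probe 2 or the first 30 bases of the other probes are given.
Susd3: gggtgcagtcccaaagaagtcaacacaacc
Esr1: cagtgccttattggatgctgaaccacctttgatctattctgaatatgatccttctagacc
Esr2: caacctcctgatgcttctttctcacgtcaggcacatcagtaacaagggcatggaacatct
Pgr probe 1: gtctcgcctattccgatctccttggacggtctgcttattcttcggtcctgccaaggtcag
Pgr probe 2: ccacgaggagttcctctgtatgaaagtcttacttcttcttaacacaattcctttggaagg
Nr3c1 probe 1: cTTTAAATTTGCTGTcttggtattaccaaa
Nr3c1 probe 2: ttttatttttcaTTTAAATTTGCTGTtctg
Nr3c1 probe 3: tgcctgaaaggattttattttctgataaat
Nr3c2 probe 1: aggtggagaaggtctacattagtctttttg
Nr3c2 probe 2: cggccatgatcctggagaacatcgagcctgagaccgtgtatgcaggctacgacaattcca

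On genome build rn4, as the files give it, the Susd3 probe A_42_P601961 lies at chr17:21375446-21375505 on the plus strand. The Esr1 probe A_44_P401615 lies at chr1:35660062-35660121 on the plus strand. The Esr2 probe A_44_P442569 is placed at chr6:98692012-98693324 on the minus strand, and Pgr probe 2, A_44_P359587, at chr8:5838704-5842236 on the plus strand. These placements span 1313 and 3533 bases of the genome for 60 bases of probe, so the Esr2 probe and Pgr probe 2 do not match 1 unbroken stretch of it. Pgr probe 1, A_44_P205815, has no position in the files.

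The Nr3c1 probes A_43_P15242, A_44_P1003794 and A_44_P477376 lie at chr18:32371565-32371626, chr18:32371607-32371666 and chr18:32371932-32371991, all on the minus strand. The positions of probes 1 and 2 overlap by 20 bases. The Nr3c2 probes A_43_P15261 and A_44_P158441 lie at chr19:32528010-32528068 and chr19:32587188-32587247 on the minus strand. Exons and untranslated regions of rn4 were not analysed here. The probes ranged in GC content from 23.3% for Nr3c1 probe 2 to 55.0% for Pgr probe 1 and Nr3c2 probe 2, and levels were not compared between probes.

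Of the 10 probes, Susd3 and Nr3c1 probes 1 and 3 were well above background on all 9 whey arrays. Nr3c1 probe 2 was so on 8, Nr3c2 probe 1 on 5, Esr1 on 2 and Nr3c2 probe 2 on 1. Esr2 and both Pgr probes were well above background on 0 of the 10 arrays. In serum, Susd3 alone among the 10 probes was well above background. Well above background is the scanner software's own call for a spot. A probe with several spots was counted when it held for as many of them as not, or more, and Esr1, Esr2 and Nr3c1 probe 1 had 10 spots each.

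The arrays differed in overall brightness. The 75th percentile of the processed signal was 12.5, 20.2 and 28.0 on d 2, 21.2, 41.8 and 83.2 on d 9, and 21.5, 40.6 and 34.4 on d 16 for dams 1, 2 and 3, a 6.65-fold range, and 4.11 in serum. The arrays came on 3 slides. The d 2 arrays of dams 1 and 2 shared the first slide. The d 2 array of dam 3 was on slide 2 beside the 3 d 9 arrays, and the d 16 arrays and the serum pool were on slide 3, which was scanned on another day. For d 16, slide and day cannot be told apart. All 6 milk secretion markers (caseins, Lalba, Wap and Glycam1) and all 7 probes of the luminal epithelium list were well above background on every whey array. Of 6 lymphocyte markers only Cd3g was so on any array, and of 5 liver markers none was in whey.

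**Figure D1:**
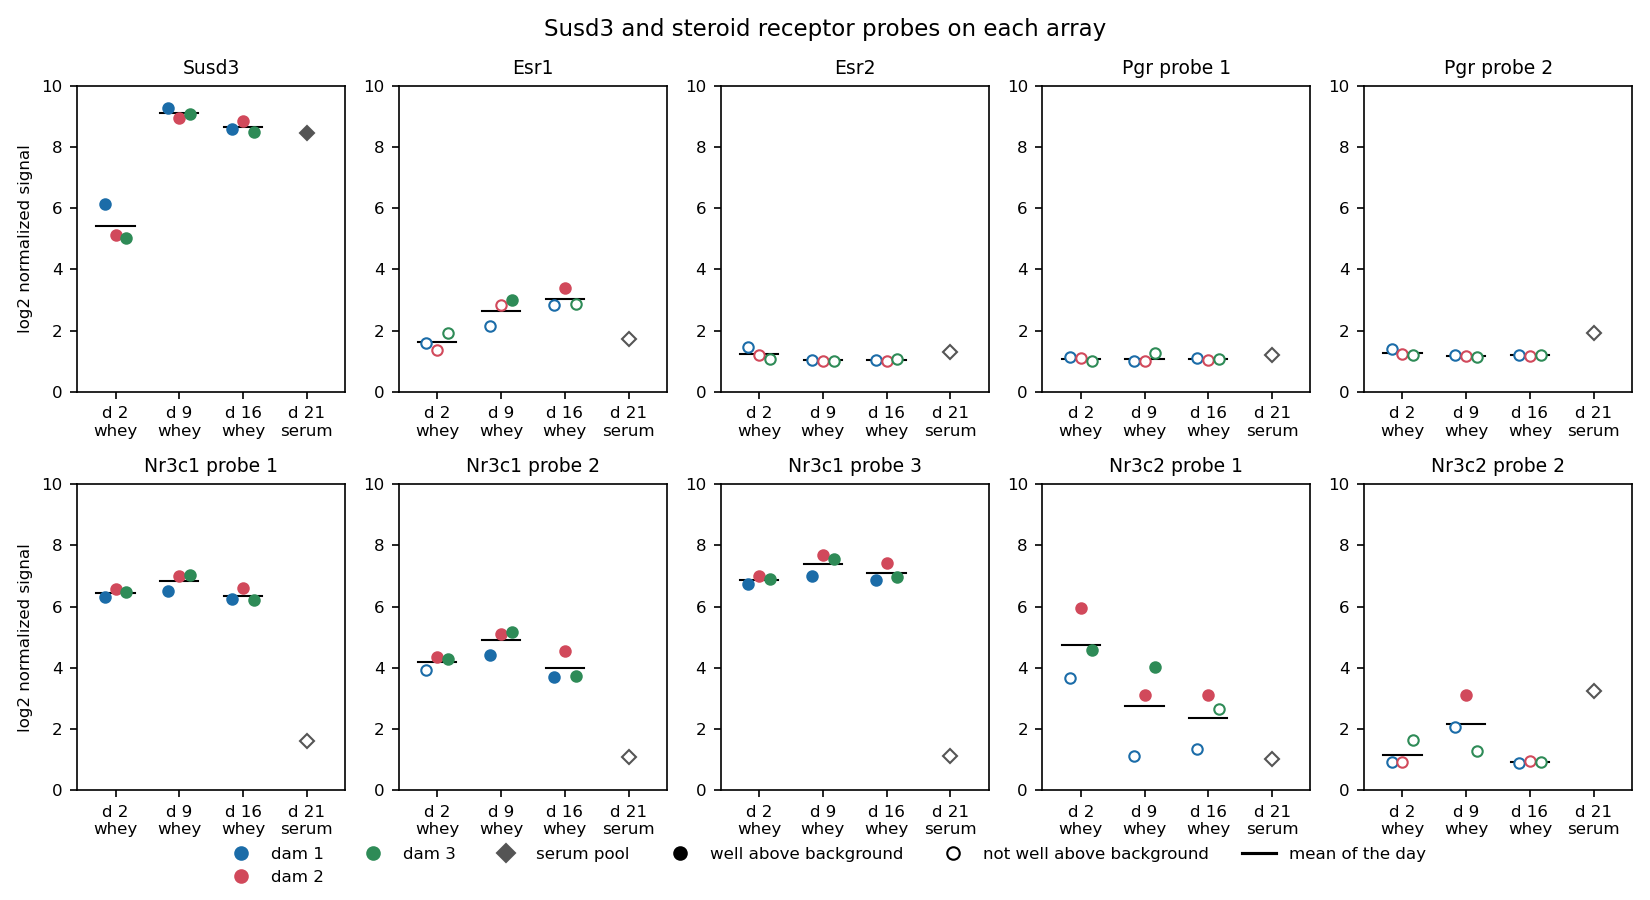
Each panel plots 1 probe, with log2 normalized signal on the vertical axis and the sample group on the horizontal axis. Points are single arrays coloured by dam, diamonds the serum pool, lines the mean of the 3 whey arrays of a day, and open symbols arrays on which the probe was not well above background. Susd3 lies between 5.04 and 6.13 on d 2 and at 8.50 or above on all later whey arrays, whereas Esr2 and Pgr stay between 0.99 and 1.47 in whey with open symbols throughout.

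Susd3 was low in colostrum whey and high in mature milk whey. Its log2 normalized signal on d 2 was 6.13, 5.12 and 5.04 in dams 1, 2 and 3. On d 9 it was 9.27, 8.96 and 9.09, and on d 16 it was 8.59, 8.85 and 8.50. The days did not overlap, and the order was the same in every dam, with d 9 highest, d 16 next and d 2 lowest. The signal thus did not rise from step to step, because it was lower on d 16 than on d 9 in 3 of 3 dams.

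The mean log2 signal of Susd3 was 5.43 ± 0.61 on d 2, 9.11 ± 0.15 on d 9 and 8.65 ± 0.18 on d 16 (SD, n = 3). The d 9 mean exceeded that of d 2 by 3.68, a 12.8-fold higher signal, and the d 16 mean exceeded it by 3.22, or 9.32-fold. The d 16 mean was 0.46 lower than that of d 9, a difference of -0.46. Within dams the d 9 minus d 2 difference ranged from 3.14 to 4.06. On slide 2 alone, with 1 array of d 2, that difference was 4.07, an alternative chosen after the data were seen. More cells that release a transcript and more transcript released per cell cannot be told apart in whey.

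Before normalization the processed signal of Susd3 was 34.2, 29.4 and 39.1 on d 2, 575, 962 and 2213 on d 9, and 350, 823 and 530 on d 16. In serum it was 33.2, within the d 2 values, although the normalized log2 level in serum was 8.45, just below the lowest d 16 array. Quantile normalization gives all arrays the same distribution of values, and the serum array was the dimmest, so the place of serum relative to whey depends on the scale. The mean of the 9 whey arrays was 0.72 below serum in normalized log2 signal, 0.19 above it with each array scaled to its 75th percentile and 3.00 above it with each array scaled to the spike-in probes. No order of whey and serum is given for Susd3.

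Of the 5 probes for the 4 other sushi domain genes on the array, 0 met the condition for a test, which was that at least 1 whey array showed the probe both well above background and brighter than 20 in processed signal. Susd5 was well above background on 4 whey arrays and Susd1 on 1, and Susd2 and Susd4 on 0.

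The genes whose level followed Susd3 most closely over the 9 whey arrays were found by the root mean square difference of log2 values after each probe was centred on its mean. They were Ckm, the creatine kinase of muscle, at 0.49, Camk2b, a calmodulin-dependent kinase, at 0.60, Atp2b2, a calcium pump of the plasma membrane, at 0.61, Adap2 at 0.64 and LOC257642 at 0.64. Atp2b2 had a mean log2 signal of 3.47 ± 0.33 on d 2, 6.35 ± 0.33 on d 9 and 6.78 ± 0.08 on d 16 (SD, n = 3). It was well above background on 7 of the 9 whey arrays, and its d 2 mean was close to the mean of the lowest measurable signals on d 2, 3.46. Ckm, Camk2b and Adap2 were not well above background on any d 2 array. These likenesses are descriptions over arrays that share dams and slides.

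**Figure D2:**
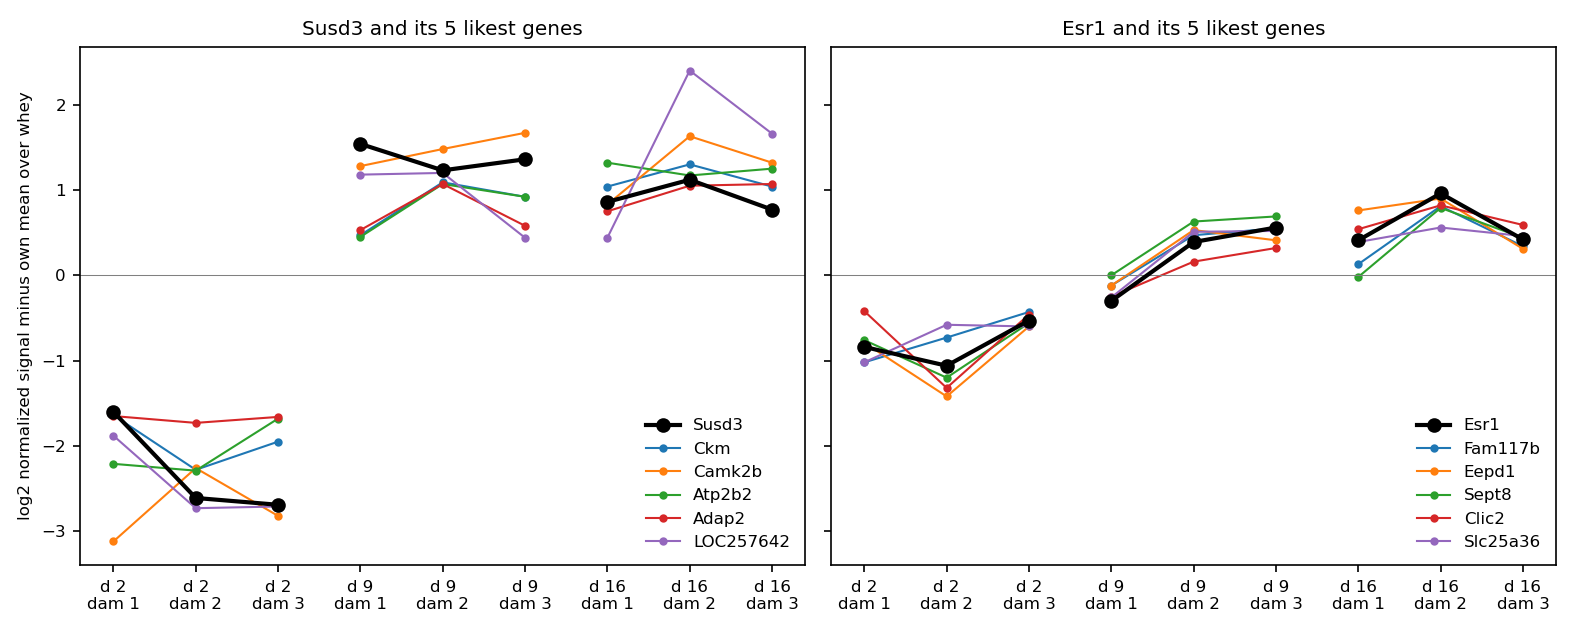
Both panels plot, for each of the 9 whey arrays on the horizontal axis, the log2 normalized signal minus the probe's own mean over whey, with lines that join the arrays of a day to guide the eye. Susd3 and Esr1 are in black and the 5 genes nearest to each in colour. Susd3 is below its mean on all d 2 arrays and above it on all others, and the nearest genes of Esr1 stay within a root mean square difference of 0.22 of it.

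Among probes within 500 kb of Susd3, the nearest was AA866228 on the opposite strand, 0.0990 kb away, which was well above background on 1 whey array and was not tested. Of 9 neighbouring probes tested, 3 were called higher and 1 lower on d 16 against d 2, beside 16.0% and 12.4% of all probes, and the other 5 (Iars with 2 probes, Nol8, Bicd2 and ENSRNOT00000060568) lay between -0.89 and 0.42. Fgd3, 35.9 kb away, was well above background on 0 whey arrays. Ninj1, a membrane protein of nerve injury and cell rupture 36.4 kb away, was higher on d 16 than on d 2 by 0.82 (adjusted p = 0.00347, limma). RGD1306058, 27.6 kb away, was higher by 0.99 on d 16 than on d 2 (adjusted p = 0.0196). Fam120a, 389 kb away, was higher than on d 2 by 0.49 on d 9 and 0.48 on d 16 (adjusted p = 0.0317 and 0.0231). TC596760, 230 kb away, moved the other way and was at least 8.50-fold lower on d 16 than on d 2 (adjusted p = 0.00161) and at least 3.79-fold lower than on d 9 (adjusted p = 0.0449). In the last case the bound is taken because the probe was not well above background on any d 16 array, and it uses the lowest signal of any probe well above background there. TC596760 entered the test only through the earlier days.

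The days were compared for the receptors with limma, which was fitted to the 9 whey arrays. The adjusted p is that of Benjamini and Hochberg, taken over all 16849 probes that met the condition for a test. Of the 9 receptor probes, 5 met it, namely Esr1, the 3 Nr3c1 probes and Nr3c2 probe 1. On d 9 against d 2, 1 of these 5 probes was called higher and 0 lower, against 11.3% of all probes tested called higher and 6.36% called lower. On d 16 against d 2, 1 was called higher and 0 lower, against 16.0% and 12.4% of all probes tested. From d 9 to d 16, 0 were called either way by limma, against 0.564% of all probes tested called higher and 0.855% called lower. The Tukey-Kramer test called 0 of all probes tested in this comparison, so its 0 for the receptors says nothing of them. In limma, 2 receptor probes had an unadjusted p under 0.05. With so few members these counts do not set the receptors apart from other probes.

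Esr1, the oestrogen receptor alpha, was the probe called higher in both comparisons with d 2. Its log2 normalized signal was 1.60, 1.38 and 1.91 on d 2 in dams 1, 2 and 3, then 2.14, 2.83 and 3.00 on d 9, and 2.84, 3.40 and 2.86 on d 16. It was 1.74 in serum. Every d 9 and d 16 array was above every d 2 array, and the d 9 and d 16 values overlapped. Each of the 3 dams was higher on d 9 and on d 16 than on d 2.

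The signal of Esr1 was close to the limit of measurement throughout. Of its 10 spots, 0 were well above background on each d 2 array. On d 9, 1, 3 and 10 of 10 spots were so in dams 1, 2 and 3, and on d 16, 1 of 10, 8 of 8 and 2 of 9 spots. In serum it was 0 of 8. The processed signal averaged over spots was 2.64, 2.30 and 4.66 on d 2, 4.18, 10.8 and 22.4 on d 9, and 7.16, 16.5 and 9.59 on d 16. Spots of the same array differed by a coefficient of variation of 8.44% to 60.7%, least on the array with the highest signal.

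The mean log2 signal of Esr1 was 1.63 ± 0.27 on d 2, 2.65 ± 0.45 on d 9 and 3.03 ± 0.31 on d 16 (SD, n = 3). The adjusted p was 0.0380 for d 9 against d 2, 0.00825 for d 16 against d 2 and 0.484 for d 16 against d 9 (limma). No fold is given against d 2, because 0 of 3 d 2 arrays measured the transcript above background and the mean of the lowest measurable signals on d 2, 3.46, was above the means of the later days. As a probe, Esr1 was measured on 1 of 3 arrays on d 9 and on 1 of 3 on d 16. It entered the test through 1 array, d 9 whey of dam 3, the only array on which its signal also exceeded 20. A probe that is tested only because of a high value on 1 day tends to differ in favour of that day.

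The d 9 call for Esr1 was not stable. With slide as a fixed block its adjusted p was 0.351 (limma), and calls over all probes fell as well, from 2969 to 498. The adjusted p of Esr1 was 0.144 with arrays scaled to their 75th percentile and 0.281 with normexp background correction. It was 0.0831 and 0.109 without d 2 whey of dam 1 or dam 2, 0.117 without d 9 whey of dam 2, and 0.0523 and 0.0600 without d 16 whey of dam 1 or dam 3. Without d 9 whey of dam 3 the probe was not tested. The d 16 call was lost with spike-in scaling and with normexp correction, at an adjusted p of 0.157 and 0.101. Normexp correction adds an offset of 50 to each signal, above the highest processed signal of Esr1, 22.4. The offset shrinks differences of so dim a probe, here to 0.09 on d 9 and 0.14 on d 16. The calls lost with normexp therefore say little of Esr1. Array brightness moved with the signal, since the 2 arrays that measured Esr1 had 75th percentiles of 83.2 and 40.6, among the 3 brightest, and its part in the result was not tested. Relative to the 75th percentile, d 9 and d 2 overlapped, with a log2 ratio of -2.51 in d 9 whey of dam 1 against -2.30, -3.17 and -2.83 on d 2, whereas the d 16 ratios of -1.68, -1.31 and -1.87 were above all of d 2.

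**Figure D3:**
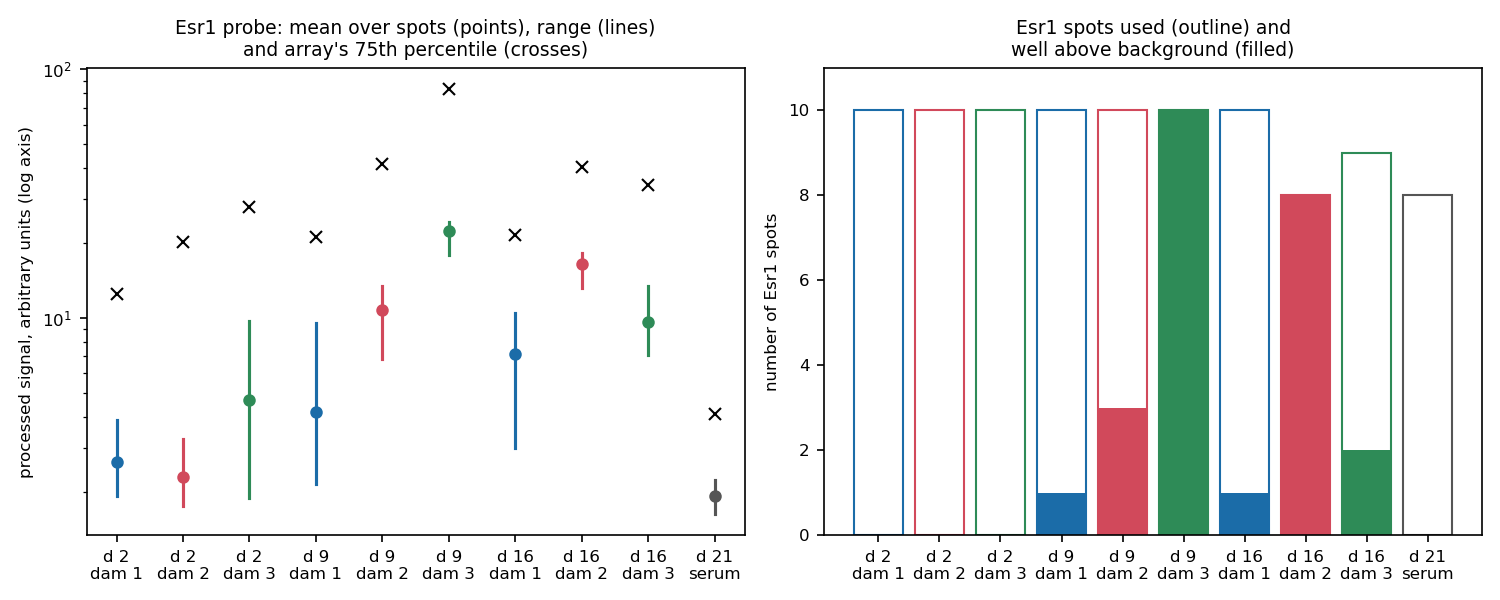
The left panel plots the processed signal of the Esr1 probe on each array on a log axis, as the mean over spots (points) with the range over spots (lines), beside the 75th percentile of that array (crosses). The right panel plots how many Esr1 spots were used (outline) and how many were well above background (filled). All 10 spots are filled in d 9 whey of dam 3 and 8 of 8 in d 16 whey of dam 2, while 0 are filled on d 2 and in serum.

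Likeness to Esr1 rests mostly on values at background, since only 2 of the 9 whey arrays measured Esr1 above it. By this measure the nearest genes were Fam117b at a root mean square difference of 0.18, Eepd1, a nuclease domain protein, at 0.20, Sept8, a septin, at 0.21, Clic2, a chloride channel family member, at 0.22 and Slc25a36, a mitochondrial carrier, at 0.22. Sept8 and Slc25a36 were well above background on all 9 whey arrays. Sept8 had a mean log2 signal of 4.80 ± 0.33 on d 2, 6.08 ± 0.38 on d 9 and 6.05 ± 0.40 on d 16 (SD, n = 3). Susd3 was not among these genes, and Esr1 was not among those nearest to Susd3.

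Esr2, the oestrogen receptor beta, was at background on every array. Its log2 normalized signal was 1.47, 1.20 and 1.07 on d 2, 1.05, 1.02 and 1.00 on d 9, 1.04, 1.01 and 1.08 on d 16 and 1.31 in serum. None of its spots was well above background on any array, and the processed signal stayed between 1.93 and 2.53 in whey. These values are bounds on a transcript that was not detectable here, and no difference between days was tested.

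Pgr, the progesterone receptor, was at background too, with both probes. Pgr probe 1 had log2 values of 1.13, 1.12 and 1.01 on d 2, 1.01, 0.99 and 1.26 on d 9 and 1.12, 1.04 and 1.06 on d 16, and 1.21 in serum. Pgr probe 2 ranged from 1.14 to 1.40 in whey and was 1.91 in serum. The processed signals of the 2 probes lay between 1.88 and 3.07 in whey, with the highest on the brightest array, d 9 whey of dam 3.

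Nr3c1, the glucocorticoid receptor, was measured in whey on all 3 days and was not well above background in serum. Probe 1 had log2 values of 6.31, 6.56 and 6.49 on d 2, 6.50, 7.01 and 7.04 on d 9, and 6.25, 6.60 and 6.23 on d 16, with 1.60 in serum. The ranges of the days overlapped on this probe, although each dam was higher on d 9 than on d 2 and lower again on d 16. Its 10 spots differed by a coefficient of variation of 2.83% to 6.22% in whey. The SD of its log2 signal between dams was 0.13 on d 2, 0.30 on d 9 and 0.21 on d 16 (n = 3).

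Probe 3 of Nr3c1 had log2 values of 6.75, 7.00 and 6.90 on d 2, 6.99, 7.69 and 7.54 on d 9, and 6.87, 7.42 and 6.98 on d 16, and 1.12 in serum. Probe 2, the dimmest, had 3.91, 4.36 and 4.30 on d 2, 4.40, 5.09 and 5.18 on d 9, 3.70, 4.56 and 3.74 on d 16 and 1.09 in serum. The d 9 range of probe 2 was above that of d 2, while those of probe 3 overlapped. On all 3 probes, all 3 dams were higher on d 9 than on d 2 and lower on d 16 than on d 9. The 3 probes read the same RNA of the same arrays and are not separate evidence.

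The log2 difference of Nr3c1 between d 9 and d 2 was 0.40 ± 0.19 on probe 1, 0.70 ± 0.30 on probe 2 and 0.53 ± 0.22 on probe 3 (SE), with adjusted p of 0.173, 0.141 and 0.134 by limma. The 95% intervals were -0.03 to 0.83, 0.01 to 1.39 and 0.02 to 1.04. On d 16 against d 2 the differences were -0.09, -0.19 and 0.21, with adjusted p of 0.737, 0.665 and 0.517. From d 9 to d 16 they were -0.49, -0.89 and -0.32, with adjusted p of 0.214, 0.177 and 0.467. No Nr3c1 probe thus passed the threshold between any days, and the d 2 to d 16 intervals of -0.52 to 0.34, -0.88 to 0.50 and -0.30 to 0.71 show how large a change could have been missed.

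The scaling changed the d 9 call for Nr3c1. With spike-in scaling, the differences between d 9 and d 2 were 1.92, 2.15 and 2.05 and all 3 probes were called (adjusted p = 0.0283, 0.0176 and 0.0215, limma). That scaling called 7072 of all 16849 probes tested, against 2969 with quantile normalization, so these calls do not set Nr3c1 apart. The median of all probes tested also moved, from 0.11 with quantile normalization to 1.52 with spike-in scaling, and the Nr3c1 differences moved with it.

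Nr3c2, the mineralocorticoid receptor, which binds aldosterone and corticosteroids, had the widest spread between dams. Probe 1 had log2 values of 3.66, 5.94 and 4.59 on d 2 in dams 1, 2 and 3, then 1.11, 3.11 and 4.02 on d 9, and 1.34, 3.10 and 2.65 on d 16, with 1.02 in serum. It was well above background on 2 of 3 arrays on d 2, 2 of 3 on d 9 and 1 of 3 on d 16. The d 2 and d 9 values overlapped and the d 2 and d 16 values did not, and dam 1 was the lowest dam on every day. In dam 1 the processed signal was 6.87, 2.01 and 2.62 on d 2, d 9 and d 16, not well above background on any day. The dam 1 array was also the dimmest of each day, with 75th percentiles of 12.5, 21.2 and 21.5. The part of array brightness in the spread between dams was not tested. Each dam was lower on d 9 and on d 16 than on d 2.

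The mean log2 signal of Nr3c2 probe 1 was 4.73 ± 1.15 on d 2, 2.75 ± 1.49 on d 9 and 2.36 ± 0.92 on d 16 (SD, n = 3). The d 9 minus d 2 difference was -1.98 (95% interval -3.99 to 0.03, adjusted p = 0.149), d 16 minus d 2 was -2.37 (-4.38 to -0.36, adjusted p = 0.0768) and d 16 minus d 9 was -0.39 (-2.40 to 1.62, adjusted p = 0.846), all by limma. None passed the threshold. With the dam as a replicate block in the fit, which takes out the difference between dams, the adjusted p was 0.0344 for d 9 against d 2 and 0.0156 for d 16 against d 2, and the probe was called lower in both. Without d 9 whey of dam 1 the adjusted p of the d 16 difference was 0.0433. The probe met the condition for a test on d 2 whey of dams 2 and 3 and on d 9 whey of dam 3. Its processed signals there were 53.3, 28.0 and 52.7, and no d 16 array met the condition. As for Esr1, a probe tested only through such arrays tends to differ in favour of their days, here against d 16. Dam 1 was not well above background on any day, so its differences do not measure a fall.

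Probe 2 of Nr3c2 was mostly at background. It was well above background on 1 whey array, d 9 whey of dam 2, with a processed signal of 13.3 and a log2 signal of 3.10, and it was not tested. On the other whey arrays its log2 signal lay between 0.87 and 2.06, and it was 3.24 in serum with a processed signal of 2.29. It was 0.90, 0.91 and 1.65 on d 2 and 2.06, 3.10 and 1.29 on d 9, and 0.87, 0.95 and 0.90 on d 16. Since no d 2 array measured this probe above background, it could not show a fall, and it bears neither for nor against the values of probe 1.

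**Figure D4:**
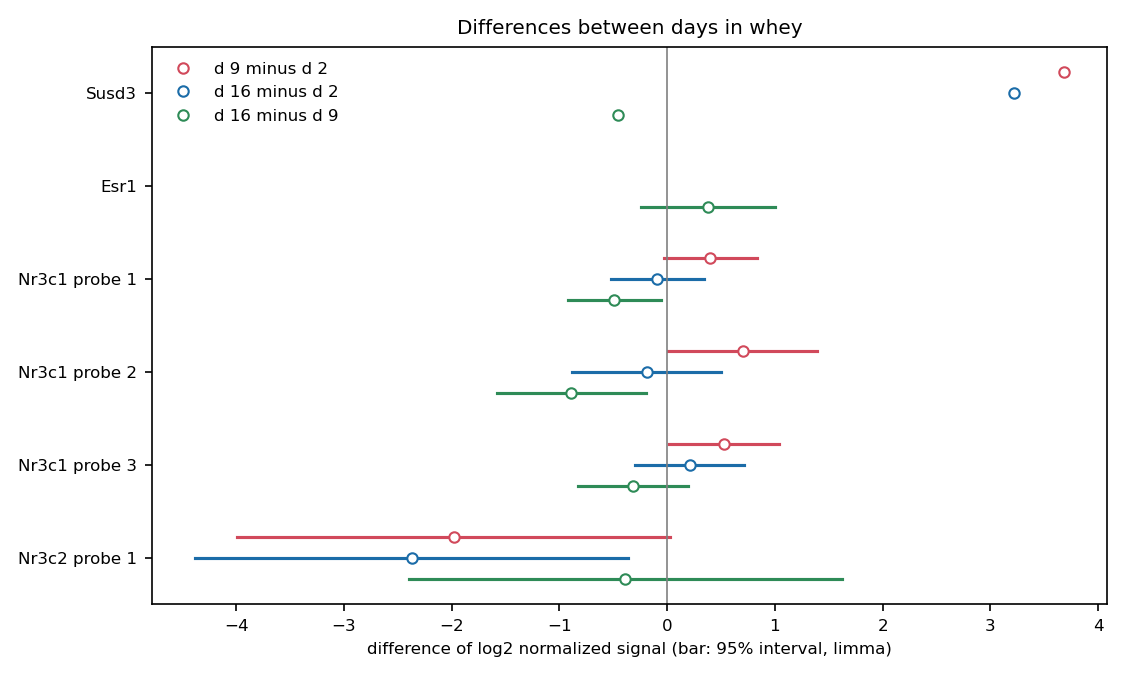
Differences of log2 normalized signal between days in whey are plotted on the horizontal axis for each member probe that met the condition for a test, with 95% intervals from limma as bars. Susd3 has no interval because it was chosen for its rise, and the differences of Esr1 from d 2 are left out because no d 2 array measured it above background. Susd3 stands at 3.68 and 3.22, while the intervals of all 3 Nr3c1 probes lie between -1.58 and 1.39.

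Genes around the receptors were described from lists by role. Of the 9 chaperone and cochaperone genes that hold the receptors ready for hormone, all 9 were above background in whey, with 21 of 22 probes so on all 9 arrays. On d 9 against d 2, 2 of 22 probes were called higher and 2 lower, beside 11.3% and 6.36% of all probes tested, with a median log2 change of 0.06 beside 0.11. On d 16 against d 2, 2 were called higher and 4 lower, beside 16.0% and 12.4%, with a median of -0.11 beside 0.04. Hsp90aa1, the stress-induced Hsp90, was called lower on d 9 than on d 2 on 2 of its 4 probes, with log2 differences of -0.85 and -0.59 (adjusted p = 0.0409 and 0.0229, limma), and the other 2 differed by -0.39 and -0.70 without a call (adjusted p = 0.146 and 0.178). Fkbp4, an immunophilin of receptor complexes, was called higher on d 9 on 2 of its 3 probes, by 0.52 and 0.48 (adjusted p = 0.0209 and 0.0367). On d 16 against d 2, Stip1 differed by -0.63, St13 by -0.56 and 1 of 4 Hspa8 probes by 0.56 (adjusted p = 0.0480, 0.0135 and 0.0212). From d 9 to d 16, 1 of 2 Dnajb1 probes fell by 0.73 on the log2 scale (adjusted p = 0.0344).

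Of 25 probes for coregulators, which receptors recruit to chromatin, 19 were tested. On d 9 against d 2, 0 were called, beside 11.3% of all probes tested called higher and 6.36% lower. On d 16 against d 2, 0 were called higher and 1 lower, beside 16.0% and 12.4%. The lower one was Ncoa4, also a receptor for ferritin turnover, at -1.02 (adjusted p = 0.0182, limma). The median log2 changes, 0.07 and 0.05, were near those of all probes tested, 0.11 and 0.04.

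Of 17 glucocorticoid-responsive probes tested, 4 were called higher and 1 lower on d 9 against d 2, beside 11.3% and 6.36% of all probes tested, with a median log2 change of 0.50 beside 0.11. On d 16 against d 2, 5 were called higher and 1 lower, beside 16.0% and 12.4% of all probes, with a median of 0.75 beside 0.04. The probes called higher belonged to 3 genes, Fkbp5, Sgk1 and Klf9, a transcription factor with 2 probes. From d 9 to d 16, 0 of the 17 were called, beside 0.564% of all probes called higher and 0.855% lower. Fkbp5, a cochaperone that lowers hormone binding by the glucocorticoid receptor, had a mean log2 signal of 6.21 ± 0.41 on d 2, 7.20 ± 0.35 on d 9 and 7.86 ± 0.11 on d 16 (SD, n = 3). It was higher than on d 2 by 0.99 ± 0.25 on d 9 and 1.65 ± 0.25 on d 16 (SE, adjusted p = 0.0318 and 0.00311), a further Fkbp5 probe was higher by 1.55 on d 16 (adjusted p = 0.0139), and the third, at 0.47 and 0.75, was not called on either day.

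Sgk1, a kinase that both corticosteroid receptors induce, was higher than on d 2 by 1.82 ± 0.39 on d 9 and 1.29 ± 0.39 on d 16 (SE, adjusted p = 0.0199 and 0.0432, limma). Tsc22d3, the glucocorticoid-induced leucine zipper, gave unlike values on its probes. One probe differed from d 2 by -1.07 on d 9 and -0.98 on d 16 (adjusted p = 0.0350 and 0.0332), and the other by 0.29 and -0.37 (adjusted p = 0.348 and 0.206). Levels of Nr3c1 probes 1, 2 and 3 differed from d 2 by 0.40, 0.70 and 0.53 on d 9 and by -0.09, -0.19 and 0.21 on d 16, without a call. Serum held 9 of the 21 probes of this list above background.

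Of 17 probes on the array for 13 oestrogen-responsive genes, 8 were tested. On d 9 against d 2, 0 were called higher and 1 lower, beside 11.3% and 6.36% of all probes tested. For d 16 against d 2, 0 were called higher and 2 lower, beside 16.0% and 12.4%. Between d 9 and d 16, 0 were called higher and 2 lower, beside 0.564% and 0.855%. The 2 lower calls were both probes of Ccnd1 each time. The median log2 changes were -0.38 and -0.65, beside 0.11 and 0.04 over all probes tested. Ccnd1, the cell cycle cyclin D1, was lower on d 16 than on d 2 on both probes, with differences of -2.30 and -2.24 (adjusted p = 0.000961 and 0.00157, limma), and its differences from d 9 were -1.75 and -1.71 (adjusted p = 0.0248 and 0.0356). Ctsd, the lysosomal protease cathepsin D, had a mean log2 signal of 11.53 ± 0.20 on d 2, 10.07 ± 0.49 on d 9 and 11.47 ± 0.28 on d 16, and its d 9 difference of -1.46 was called (adjusted p = 0.0110). Tff3, Foxa1, Areg, Tnfsf11 and Stc2 were well above background on no array, and Tff1 and Igfbp4 in serum only.

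Among 36 other nuclear receptors, 18 had a probe that was tested. On d 9 against d 2, 2 of 19 probes were called higher and 0 lower, beside 11.3% and 6.36% of all probes tested. On d 16, 1 was called higher and 1 lower, beside 16.0% and 12.4%. The medians, 0.14 and 0.13, stood beside 0.11 and 0.04. Nr0b1, an atypical receptor without a DNA-binding domain that represses steroidogenic genes, was not well above background on any d 2 array and was so on all 6 later whey arrays. Its signal exceeded that of d 2 at least 1.53-fold on d 9 and at least 4.61-fold on d 16 (adjusted p = 0.00528 and 0.000456, limma). It entered the test only through the later days, and such a probe had to lean that way, as for Esr1. Rora was higher by 0.49 on d 9 than on d 2 (adjusted p = 0.0453), and Vdr, the vitamin D receptor, had a d 16 minus d 2 difference of -1.68 (adjusted p = 0.0397).

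Membrane receptors for steroids gave 4 tested probes of 9. On d 9 against d 2, 0 were called, beside 11.3% of all probes called higher and 6.36% lower. On d 16 against d 2, 0 were called higher and 1 lower, beside 16.0% and 12.4%. That one was Paqr7, a membrane progestin receptor, at -1.69 (adjusted p = 0.0377, limma). Gper1 and Paqr5 were well above background on no array. Of 9 tested probes of steroid metabolism, 1 was called higher on d 9 and 3 on d 16 against d 2, beside 11.3% and 16.0% of all probes, with 0 lower and medians of 0.21 and 0.38. Hsd17b11, a hydroxysteroid dehydrogenase of lipid droplets, was higher by 1.07 on d 9 and 1.27 on d 16 (adjusted p = 0.0193 and 0.00676). Sts, steroid sulphatase, reached at least 1.97-fold its d 2 signal on d 16 (adjusted p = 0.0165), and it too was tested only through the later days, with no d 2 array well above background.

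Markers of the secretory epithelium and of other cells moved over the same days, and their part in the results above was not tested. On d 9 against d 2, 4 of 7 luminal epithelium probes were called lower and 0 higher, beside 6.36% and 11.3% of all probes tested. Among the lower ones were Krt19 at -2.75, Krt8 at -1.31 and Krt18 at -0.90 (adjusted p = 0.00353, 0.00726 and 0.0143, limma). On d 16, 3 of 7 were called lower and 0 higher, beside 12.4% and 16.0% of all probes tested. They were 1 probe each of the same keratins, with differences of -2.29, -1.16 and -0.72 (adjusted p = 0.00278, 0.00607 and 0.0203). Cdh1 and Epcam stood at 0.66 and 0.43 without a call (adjusted p = 0.0644 and 0.362). The normalized signal of the 7 luminal probes, summed on the linear scale, ranged from 12907 to 16937 on d 2, 6277 to 8480 on d 9 and 8094 to 9598 on d 16. The summed normalized signal of the 6 milk secretion markers ranged from 1053450 to 1097860, 1036786 to 1319933 and 1214942 to 1434416. Of its 6 probes, 4 were called higher on d 16 than on d 2, beside 16.0% of all probes tested. Among these 4 were Lalba at 1.07, Csn2 at 1.04 and Wap at 0.73 (adjusted p = 0.00764, 0.00581 and 0.0164). Quantile normalization sets the value of the brightest probes by their rank. Wap had an SD of 0.00 on d 2 and on d 16, so its difference is one of rank and its spread between dams was not measured. By qPCR in equal volumes, an unlike measure, the paper reported Csn2 and Wap as unchanged over lactation and Lalba as higher in colostrum whey.

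Of 5 tested macrophage probes, 2 were called higher and 2 lower in each comparison with d 2. The shares of all probes tested were 11.3% and 6.36% on d 9 and 16.0% and 12.4% on d 16. Fcgr1a, an Fc receptor, was higher by 1.87 on d 9 and 3.36 on d 16 (adjusted p = 0.00892 and 0.000592, limma), whereas Cd14 differed by -1.54 and -1.88 (adjusted p = 0.0295 and 0.00951) and Csf1r was well above background on no array. Cd68 was at least 1.97-fold and 3.99-fold higher on d 9 and d 16 (adjusted p = 0.0157 and 0.00112), and was tested only through those days, with no d 2 array well above background. The summed normalized signal of the 9 macrophage probes was 337 to 404 on d 2, 168 to 265 on d 9 and 315 to 432 on d 16. Cd3g was higher by 1.16 on d 16 (adjusted p = 0.0164), while Cd3e, Cd4, Cd8a and Cd79b were above background on no array, and the summed normalized lymphocyte signal was 37.0 to 55.8, 43.0 to 69.7 and 70.7 to 93.3.

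Cfd, from the adipocyte list, was called lower on the later days, with log2 differences of -1.47 and -1.35 (adjusted p = 0.0107 and 0.00869, limma), and Col1a1 was at least 1.41-fold and 1.66-fold higher on 1 of its 3 probes (adjusted p = 0.0188 and 0.00556), which was well above background on no d 2 array and so was tested only through the later days. The other 2 Col1a1 probes were not called. Adipoq, Lep and Plin1 in the adipocyte list and Dcn, Lum and Pdgfra in the fibroblast list were above background on no whey array. The summed normalized adipocyte signal was 227 to 384 on d 2, 84.6 to 142 on d 9 and 111 to 134 on d 16, and the fibroblast signal was 41.3 to 46.3, 45.2 to 116 and 52.3 to 66.3. The adipocyte sum mostly repeats Cfd, the brightest probe of that list, with mean log2 signals of 8.07, 6.59 and 6.71. Fabp4, the other adipocyte probe tested, differed from d 2 by 0.18 and -0.26 without a call (adjusted p = 0.824 and 0.724, limma). None of the 1 endothelial, 3 neutrophil and 5 basal myoepithelial probes tested was called between any days, beside the shares of all probes given above. For erythroid and liver lists 0 probes were tested, and Oxtr, Pecam1, Tek and Elane were above background on no array.

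The bases before each gene's start were searched for hormone response half-sites in RefSeq sequence of build GRCr8, which held windows for 5 of the 6 genes and none used here for Nr3c2. Over the 250 bases before the start, on both strands, the oestrogen response half-site GGTCA was found in the Esr2 window, with 2 matches, and in none of the Susd3, Esr1, Pgr and Nr3c1 windows. It was present in 35.4% of all 33469 windows. The glucocorticoid response half-site AGAACA was present in 17.5% of all windows and in none of those 5 genes. No match says only that these letters are absent from these windows.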

How the data were processed

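Total RNA of milk whey and serum was amplified, labelled with cyanine 3 and hybridized by the authors to 1-colour Agilent Whole Rat Genome arrays. The deposited spot values are intensity values that the authors obtained in Feature Extraction (version 9.5.3.1), with local background and spatial trends removed from the processed signal and no normalization between arrays. The deposited well-above-background and outlier flags are other values of the same software. A deposited quantile-normalized matrix on a log2 scale was not used here, because its 10 column names match no label.

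Log2 processed signal was quantile normalized over the 10 arrays with control spots left out, outlier spots were set to missing, and spots of a probe were averaged. Probes entered the test if at least 1 whey array showed them both well above background and brighter than 20 in processed signal. Days were compared with limma 3.58.1 in R 4.3.3 (jsonlite 2.0.0), two-sided, on 9 arrays, with Benjamini-Hochberg adjustment over 16849 probes and a threshold of 0.05. The step was tested on simulated data. The number of arrays limits the precision.

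Members, gene lists and tests were chosen with earlier results of these data known. Named genes were the member probes, the 5 genes nearest to Susd3 and to each called receptor probe, probes within 500 kb of Susd3, the called list probes with the 3 largest changes per pair of days, and markers not above background. The sample titles number the dams, and the same animals were milked on each day, so dams are a pairing. Deviations from the day means correlated within dams by 0.12 to 0.22 for dam 1, -0.02 to 0.12 for dam 2 and 0.02 to 0.11 for dam 3. Alternatives changed the scaling, background correction, filter, slide, dam and test, and left out each array. Gene names are those of the files, except that Gper1 and Plin1 stand for older names in the files. Some genes of the lists are counted but not reported here by name. The aligner and annotation behind the array design are not given in the sources used here.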

Additional observations from a re-analysis of the deposited data

How the results depend on the processing

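On d 9 against d 2, 1 of 5 receptor probes was called, beside 2969 of all 16849 probes tested. With 75th-percentile scaling or normexp background correction 0 of 5 were called, beside 2926 and 3440 of all probes. The normexp offset of 50 shrinks the differences of probes as dim as Esr1. With slide as a fixed block, the Tukey-Kramer test or only the arrays of the days compared, 0 were called, beside 498, 1297 and 1602. Spike-in scaling gave 4 of 5, beside 7072, and no filter on dim probes gave 0 of 9, beside 2447. A minimum signal of 100 left 3 receptor probes to test and detection on all whey arrays left 2, with 0 called, beside 2991 and 2850 of all probes. Neither filter kept Esr1, so they could not test its call. On d 16 against d 2 the 1 call became 0 with spike-in scaling or normexp, beside 764 and 4929 of all probes called and 4801 in the main fit. The filters that left Esr1 out again called 0 of the receptor probes they kept, beside 4129 and 3968 of all probes. With the dam as a replicate block, 2 were called in each of these comparisons, Esr1 and Nr3c2 probe 1, beside 3092 and 4849 of all probes. The block changed no other receptor call, and Nr3c2 probe 1 was tested through d 2 and d 9 arrays only. Leaving out 1 array at a time gave 0 to 1, 0 to 2 and, from d 9 to d 16, 0 to 0 called. Calls over all probes then ranged from 1274 to 2703, 2740 to 4962 and 23 to 260. The 0 for d 16 against d 2 came without d 9 whey of dam 3, where Esr1 was not tested. Normexp correction was the alternative that most reduced the Susd3 differences, to 2.37 on d 9 and 1.86 on d 16 against d 2, and spike-in scaling gave 5.27, 3.86 and, from d 9 to d 16, -1.40. Without 1 array these 3 differences ranged from 3.48 to 4.03, 3.02 to 3.57 and -0.56 to -0.38. Spike-in scaling turned the sign of the d 2 to d 16 difference of Nr3c1 probes 1 and 2, to 0.53 and 0.39, and of the d 9 to d 16 difference of Esr1, to -0.33, while the median of all probes tested moved from 0.04 to 0.59 and from -0.06 to -0.93 in these comparisons. The d 9 to d 16 difference of Nr3c2 probe 1 turned to 0.25 and 0.13 without d 9 whey of dam 3 or d 16 whey of dam 1, in a range of -1.20 to 0.25 over single arrays left out. Whey minus serum for Susd3 turned from -0.72 to 0.19 with 75th-percentile scaling and 3.00 with spike-in scaling. The causes were not tested. Slide as a fixed block gave no value for d 16, which shares no slide with other days, and quantile normalization over whey alone gave none for serum. Probes near background limit what can be said of Esr1, Esr2, Pgr and Nr3c2.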
